A study of Rattus norvegicus with 15 samples.

Results

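Oxidative phosphorylation is carried out by 5 enzyme complexes of the mitochondrial inner membrane. Complexes I and II take electrons from NADH and succinate, complex III passes them to cytochrome c, complex IV hands them to oxygen, and complex V (ATP synthase) uses the resulting proton gradient to make ATP. Most of the subunits are coded in the nucleus, and hepatocytes, which are rich in mitochondria, rely on them to power gluconeogenesis, urea synthesis and fatty acid oxidation. The genes described here are 44 nuclear-coded subunits chosen by their symbols, of which 43 were measured among 14506 named genes. They comprise 21 subunits counted to complex I by their symbols, 4 of complex II, 7 of the 8 listed for complex III with cytochrome c, 6 of complex IV and 5 of complex V. Ndufa4 was counted with complex I by its name, although its protein is now placed in complex IV. Cyc1 was not analysed here, because no probe set carried its symbol alone.

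Transcript levels were read on Affymetrix Rat Gene 1.0 arrays from whole liver of male Sprague-Dawley rats, in 5 groups of 3 arrays. Control offspring had mothers fed normally through pregnancy and suckling and were sampled at day 21 and at day 450 of life. IUCR (intra-uterine calorie restriction) offspring had mothers given 50% fewer calories in the second part of gestation and were sampled at day 450 only. IPCR offspring had mothers restricted in that part of gestation and again from birth to day 21, and were sampled at day 21 and at day 450. The 3 rats of a group were separate littermates, the number of litters is not given, and p-values measure only the spread between these rats. Values are log2 intensities, so a difference of 1 is a doubling of signal. A gene rose or fell where its p from limma, adjusted by Benjamini-Hochberg over all 14506 genes of a comparison, was below 0.05. SE is limma's moderated standard error and SD is over 3 arrays. In whole tissue, fewer cells of a type and less RNA per cell cannot be told apart.

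The subunits were among the brighter genes of the arrays: 42 of 43 lay above the median gene by their mean level, and the lowest, at percentile 46.1, was just below it. This bears on what follows, because the deposited arrays did not share one spread. The interquartile range of all genes was 2.01 to 2.15 on the IPCR arrays of day 21 and 2.17 to 2.21 on their controls, whereas at day 450 it was 2.21 to 2.45 in IPCR, 2.18 to 2.35 in IUCR and 2.05 to 2.26 in controls. Beside an array of the same median, an array with a narrower spread lists bright genes lower. Among the 7253 genes above the median level, the median change with IPCR was -0.05 at day 21 and 0.09 at day 450 on the deposited values, against 0.02 and 0.00 after quantile normalization, which gives every array the same distribution. The results on the subunits are therefore given on the deposited values and on the quantile-normalized ones, and values of other genes are on the deposited scale unless stated.

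**Figure D1:**
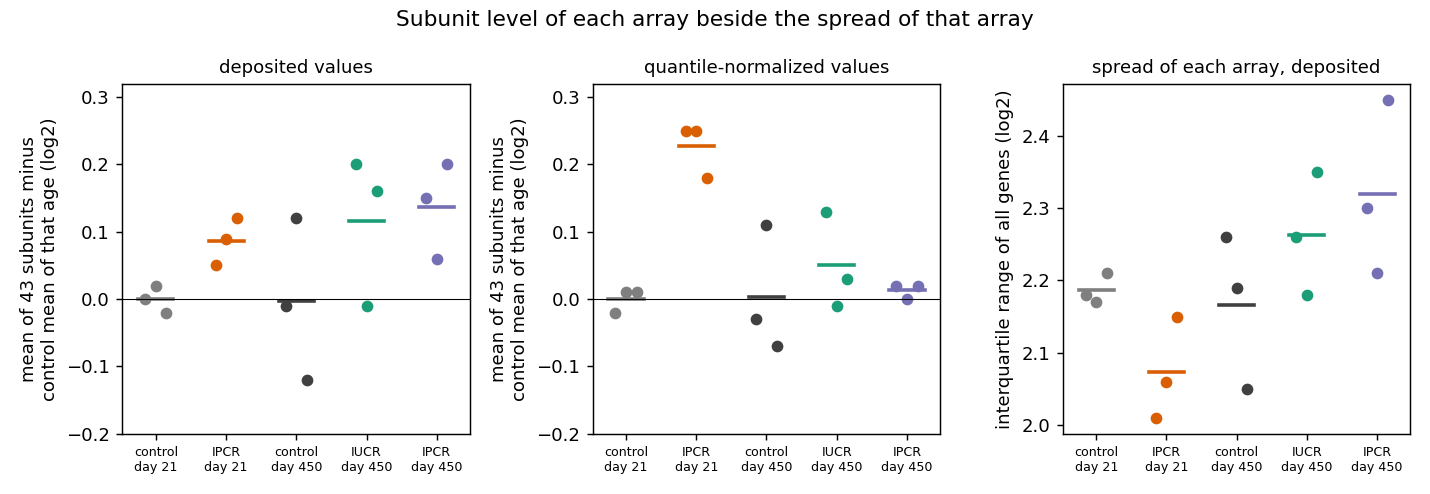
Mean of the 43 subunits on each array minus the control mean of that age (log2), on deposited values (left) and after quantile normalization (middle), and the interquartile range of all genes on each deposited array (right). Points are arrays and lines are group means. The IPCR arrays of day 21 sit at 0.05 to 0.12 on the deposited scale and at 0.18 to 0.25 after quantile normalization, and the 3 IPCR arrays of day 450 sit at 0.06 to 0.20 and then at 0.00 to 0.02.

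At day 21, at the end of suckling by restricted mothers, some respiratory subunit transcripts were higher in IPCR than in control liver, and how many passed the test depended on how the arrays were scaled. The complexes were not tested against each other. On the deposited values 2 of 43 subunits rose, Cox4i1 and Ndufb8, and none fell, while 2.63% of all genes rose and 6.99% fell. After quantile normalization 20 of 43 subunits rose and none fell, while 5.40% of all genes rose and 5.80% fell. The median subunit change was 0.10 on the deposited values and 0.25 after quantile normalization, and the median over all genes was 0.02 on both scales. The change was above 0 for 31 subunits and below 0 for 12 on the deposited values, and for 41 and 2 after quantile normalization. In 20 of the 43 subunits all 3 IPCR arrays lay above all 3 controls on the deposited values, a separation found in 14.6% of all genes. After quantile normalization it was found in 32 of the 43 and in 16.7% of all genes. Only Ndufa8 and Ndufb6 had all 3 IPCR arrays below the controls, on both scales.

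Cox4i1, the largest nuclear-coded subunit of cytochrome c oxidase, read 10.98 on each of the 3 control arrays of day 21. On the IPCR arrays it read 11.27, 11.31 and 11.26. The groups did not overlap, and the control arrays were nearly identical. The difference was 0.30 (SE 0.06), which is 1.23-fold, with a limma adjusted p of 0.00786. After quantile normalization it was 0.49 (SE 0.07), or 1.40-fold, with an adjusted p of 0.000397. Leaving out any 1 of the 15 arrays gave deposited adjusted p values from 0.00678 to 0.038, so the call did not rest on any single rat.

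Ndufb8, an accessory subunit in the membrane arm of complex I, read 8.61, 8.55 and 8.56 in control rats of day 21. In IPCR rats it read 8.96, 8.99 and 8.81. All IPCR arrays lay above the controls, with array C the lowest of the 3. The difference was 0.35 (SE 0.10), or 1.27-fold, with an adjusted p of 0.033, and after quantile normalization it was 0.44 (SE 0.09) with an adjusted p of 0.0072. On the deposited values the call was lost when any control array of day 21, or IPCR array A or B of day 21, was left out, with adjusted p values up to 0.127.

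The other 20 complex I subunits spread widely on the deposited values, from -0.21 for Ndufa8 to 0.28 for Ndufa1, which contributes to the membrane arm. After quantile normalization 9 of the 21 subunits counted to complex I rose, namely Ndufa1, Ndufa4, Ndufa6, Ndufb3, Ndufb5, Ndufb8, Ndufb9, Ndufs3 and Ndufv1. Ndufv1, the NADH-binding subunit that carries the flavin, changed by 0.39 (SE 0.06) there, with a limma adjusted p of 0.00152, against 0.18 (SE 0.08) and 0.163 on the deposited values. Ndufa8, an accessory subunit of the intermembrane-space face, read 9.32, 9.33 and 9.43 in controls and 9.13, 9.03 and 9.28 in IPCR. Its difference of -0.21 (SE 0.08) did not pass the test (adjusted p 0.101) and shrank to -0.10 after quantile normalization. Without IPCR array C of day 21 it passed, with an adjusted p of 0.0348. Complex I thus held 1 of the 2 deposited calls and also both subunits whose IPCR arrays lay below the controls.

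All 4 subunits of complex II (succinate dehydrogenase), the one enzyme shared by the respiratory chain and the citric acid cycle, were above control at day 21. The deposited changes ran from 0.11 for the flavoprotein Sdha to 0.23 for the membrane anchor Sdhd, with a median of 0.16, and none passed. Sdhd read 10.43, 10.42 and 10.45 in controls against 10.67, 10.66 and 10.67 in IPCR, with no overlap and an adjusted p of 0.087. After quantile normalization all 4 rose, Sdha by 0.25 (SE 0.07), the iron-sulfur subunit Sdhb by 0.32 (SE 0.07), the anchor Sdhc by 0.36 (SE 0.06) and Sdhd by 0.38 (SE 0.07). Complex II was the only complex with every measured subunit past the test on that scale.

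In complex III with cytochrome c the deposited median was 0.02, and the largest difference was that of the hinge subunit Uqcrh, at 0.20 (SE 0.11, adjusted p 0.305). Uqcrh read 10.45, 10.36 and 10.36 in controls and 10.60, 10.60 and 10.56 in IPCR, again without overlap. After quantile normalization Uqcrh and the core subunit Uqcrc1 rose, 2 of the 7, with changes of 0.34 (SE 0.09) and 0.33 (SE 0.08). Cycs, cytochrome c itself, changed by -0.07 (SE 0.08) on the deposited values and did not pass on either scale.

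Complex IV, counted here without Ndufa4, had the highest deposited median of the 5 complexes, 0.18. Beside Cox4i1, the zinc-binding subunit Cox5b read 9.68, 9.81 and 9.77 in controls and 10.02, 9.99 and 10.04 in IPCR. These groups were apart, yet the difference of 0.26 (SE 0.08) had a limma adjusted p of 0.0623 on the deposited values and of 0.00268 after quantile normalization. Without control array B of day 450, which enters only the shared estimate of spread, the deposited adjusted p was 0.0348. On the second scale 4 of the 6 complex IV subunits rose, Cox4i1, Cox5b, Cox6c and Cox7a2. Cox5a, which pairs with Cox4i1 in assembly, stood at -0.02 (SE 0.08) on the deposited values and did not pass on either.

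In complex V the deposited median was 0.08 and 1 of the 5 subunits rose after quantile normalization. That subunit was Atp5f1b, the catalytic beta subunit, with 0.14 (SE 0.08, adjusted p 0.304) on the deposited values and 0.28 (SE 0.06, adjusted p 0.00556) after quantile normalization. Its partner alpha subunit Atp5f1a stood at 0.00 (SE 0.08) on the deposited values, with controls at 12.31, 12.41 and 12.30 and IPCR rats at 12.23, 12.32 and 12.45.

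**Figure D2:**
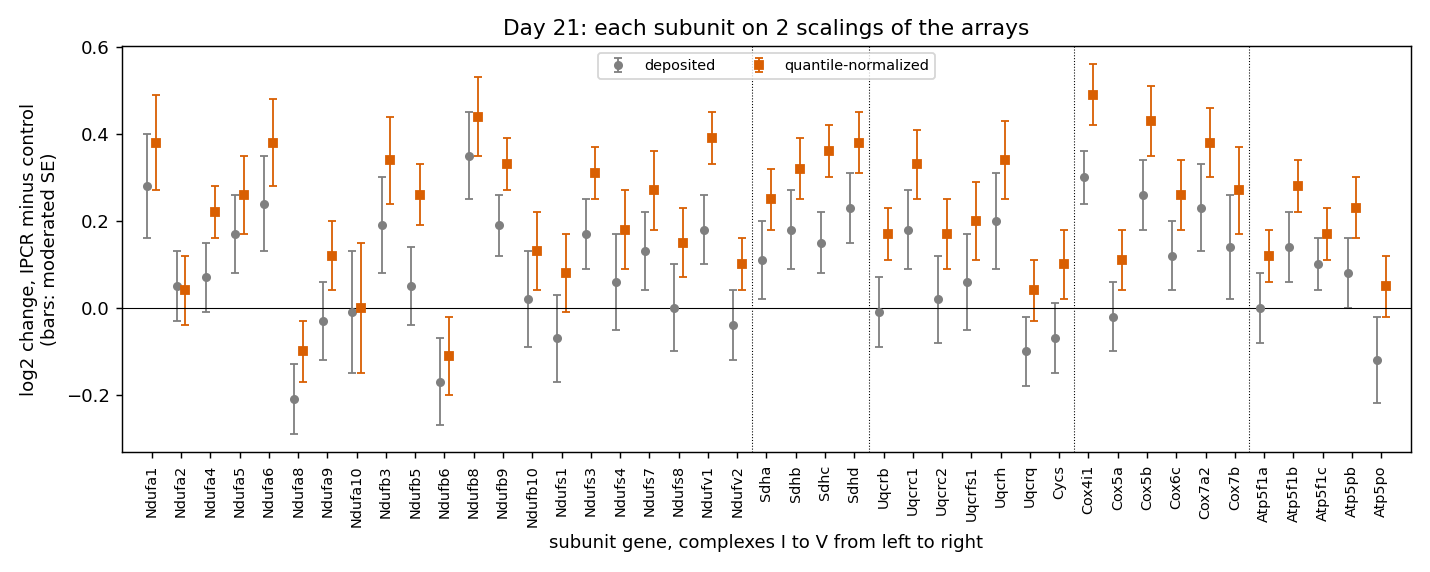
Change of each of the 43 subunits at day 21, IPCR minus control (log2), on the deposited values (grey circles) and after quantile normalization (orange squares); bars are moderated SE, and dotted lines part complexes I to V from left to right. Nearly every square lies above its circle; the median is 0.10 for the circles and 0.25 for the squares, and Ndufa8 and Ndufb6 lie below 0 on both.

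The day-21 count depended on how the arrays were put on one scale. Scaling each array to one interquartile range, an alternative chosen after seeing the data, gave 13 subunits that rose and a median of 0.24. Of all 14506 genes, 577 rose and 808 fell at that scaling. Leaving out single arrays under quantile normalization, also chosen after seeing the data, gave 12 to 22 subunits that rose and medians of 0.22 to 0.26. The count was 12 or 13 without any 1 control array of day 21 or IPCR array A or B of day 21, and 20 without IPCR array C of day 21. The sign of the change differed between the deposited and quantile-normalized values for 10 of the 43 subunits, and the 2 deposited calls held on both. Deposited 95% intervals of 41 of the 43 subunits lay within 0.5 of 0 at day 21, so a change of more than 1.41-fold was outside the interval for those. The part of other cell types in the day-21 values was not tested. Of 6 measured endothelial markers 4 fell at day 21 (Kdr, Fcgr2b, Eng and Tek), beside 6.99% of all genes. Summed endothelial levels were 11.92 to 12.30 in controls and 11.33 to 11.86 in IPCR. Of 3 measured bile duct markers only Krt19 rose, by 0.61 (SE 0.17), and the lowest change was -0.01. All 8 macrophage markers were below 0, 3 with an unadjusted limma p below 0.05, and none was called. After quantile normalization Fcgr2b and Tek fell, beside 5.80% of all genes, and Kdr and Eng did not pass (limma adjusted p 0.0536 and 0.0792). On that scale Krt19 rose, and 6 macrophage markers were below 0 and 2 above, with none called. The 6 hepatocyte markers were all bright, with the lowest at 13.51, and their summed level was 16.30 to 16.87 in controls and 16.79 to 16.82 in IPCR. None of the 6 was called on the deposited values, and Ttr fell by 0.29 (SE 0.07) after quantile normalization. None of the endothelial markers was at or near the bottom of the scale, the lowest averaging 8.11. Summed levels of 4 skeletal muscle markers were 9.59 to 9.67 in controls and 9.72 to 9.77 in IPCR. None of the 4 was called on the deposited values. After quantile normalization Ckm rose by 0.28 (SE 0.08), beside 5.40% of all genes.

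Promoters are shown for 5 subunits that rose at day 21 on at least one scale, so that the sites named below can be seen; these 5 were chosen after their values were seen. Each is the 150 bases upstream of the gene's RefSeq start on assembly GRCr8, read along the gene's own strand, with any match to a searched core in capitals. Cox4i1 lies at chr19:65630233-65630382 on the plus strand, Ndufb8 at chr1:253362937-253363086 on the minus strand, Ndufa6 at chr7:115750318-115750467 on the minus strand, Sdhb at chr5:158547784-158547933 on the plus strand and Cox5b at chr9:46417687-46417836 on the plus strand.
Cox4i1: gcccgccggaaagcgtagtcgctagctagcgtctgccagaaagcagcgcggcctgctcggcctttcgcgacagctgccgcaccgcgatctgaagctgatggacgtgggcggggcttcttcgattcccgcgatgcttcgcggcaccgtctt
Ndufb8: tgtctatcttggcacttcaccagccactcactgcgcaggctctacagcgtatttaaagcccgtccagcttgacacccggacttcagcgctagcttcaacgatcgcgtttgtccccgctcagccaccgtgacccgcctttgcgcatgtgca
Ndufa6: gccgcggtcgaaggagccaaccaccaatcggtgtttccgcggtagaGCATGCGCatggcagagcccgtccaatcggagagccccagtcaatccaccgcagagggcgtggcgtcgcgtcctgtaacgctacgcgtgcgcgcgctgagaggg
Sdhb: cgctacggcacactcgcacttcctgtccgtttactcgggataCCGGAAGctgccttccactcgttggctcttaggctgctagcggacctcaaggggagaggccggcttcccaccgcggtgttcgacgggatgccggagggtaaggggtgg
Cox5b: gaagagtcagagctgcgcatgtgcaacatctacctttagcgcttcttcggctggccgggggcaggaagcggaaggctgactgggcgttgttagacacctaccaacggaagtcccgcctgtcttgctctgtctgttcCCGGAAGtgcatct
The capitals mark the NRF1 core on the minus strand in Ndufa6 and the ETS core on the plus strand in Sdhb and Cox5b, and the stretches of Cox4i1 and Ndufb8 shown hold no searched core. The longer windows of 300 bases counted below hold an ETS core in Cox4i1 and a YY1 core in Ndufb8. They also hold ETS and YY1 cores in Ndufa6 and an NRF1 core in Sdhb. NRF1 and the ETS factor GABP are classic activators of nuclear genes for respiratory subunits, ERR-alpha works with the PGC-1 coactivators, and YY1 binds many such genes at their start.

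Over windows of 300 bases, from 250 before to 50 after the start, 39 of the members matched a RefSeq promoter. The NRF1 core GCGCATGC, searched on both strands, lay in 5 of the 39 (12.8%) and in 2.66% of 27457 promoters. The ETS core CCGGAAG lay in 14 (35.9%) against 9.22%, and the YY1 core AAGATGGC in 9 (23.1%) against 3.44%. The ERR core AAGGTCA lay in 3 (7.69%) against 4.37%. The ETS core ends in the letters with which the YY1 and ERR cores begin, so neighbouring matches can overlap. These are matches of letters in a window and show neither binding nor use of a site.

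Genes listed as regulators of mitochondrial function were also measured, and not all of them act on such promoters. Some of the 16 act on mitochondrial DNA, and Atp5if1 inhibits ATP synthase itself. At day 21, 5 of the 16 rose with IPCR and none fell, beside 2.63% and 6.99% of all genes. After quantile normalization 6 rose, the same 5 with Atp5if1, and none fell, beside 5.40% and 5.80% of all genes. Ppargc1a, which codes the coactivator PGC-1alpha that drives mitochondrial biogenesis and fasting gluconeogenesis, read 8.70, 7.82 and 7.91 in controls and 8.83, 9.67 and 8.78 in IPCR. The control array A was high and lay just under the lowest IPCR array. The difference was 0.95 (SE 0.23) with a limma adjusted p of 0.0162, and the call was lost without control array B (0.081), control array C (0.0711) or IPCR array B (0.0775). Pprc1, a relative of PGC-1alpha induced early in growth responses, rose by 0.57 (SE 0.12), from 7.23, 7.36 and 7.23 in controls to 7.73, 7.73 and 8.07 in IPCR. Esrra, which codes ERR-alpha, rose by 0.31 (SE 0.07; adjusted p 0.0512 without IPCR array B), Ppargc1b, the second PGC-1 coactivator, by 0.37 (SE 0.11), and Esrrg by 0.35 (SE 0.10). Nrf1, with 0.10 (SE 0.06), Gabpa, with -0.22 (SE 0.11), and Tfam, the factor that packages and transcribes mitochondrial DNA, with -0.17 (SE 0.12), did not pass.

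Of 27 further nuclear-coded subunits measured, none passed at day 21 on the deposited values (3 had an unadjusted limma p below 0.05), with a median of 0.03. After quantile normalization 7 of the 27 rose and none fell, with a median of 0.18, while 5.40% of all genes rose and 5.80% fell. Among 30 assembly factors, 1 rose and 3 fell: Ndufaf4, a complex I assembly factor, rose by 0.49 (SE 0.08), while Tmem70, needed for ATP synthase assembly, fell by 0.38 (SE 0.08), Timmdc1 by 0.37 (SE 0.10) and Ndufaf1 by 0.35 (SE 0.10). Over all genes 2.63% rose and 6.99% fell on the deposited values, and 5.40% rose and 5.80% fell after quantile normalization. These shares also stand beside the counts of the lists that follow. After quantile normalization 2 of the 30 rose, Ndufaf4 and Atpaf1, and 2 fell, Tmem70 and Timmdc1, while Ndufaf1 did not pass (adjusted p 0.0591). Of 17 genes of carriers, electron entry and peroxide defence 3 rose, and of 12 of coenzyme Q synthesis or binding 2 rose, with none falling. After quantile normalization 7 of the 17 and 3 of the 12 rose, and none fell. The largest deposited changes near the respiratory chain lay outside its subunits. Slc25a4, the ADP/ATP carrier typical of heart and muscle, read 8.60, 8.33 and 8.60 in controls and 10.06, 10.14 and 9.68 in IPCR, a rise of 1.45 (SE 0.16) with an adjusted p of 4.52e-05. Coq10b, a coenzyme Q binding protein needed for its use in respiration, read 7.03, 7.06 and 7.26 in controls and 8.51, 8.48 and 9.18 in IPCR, a rise of 1.61 (SE 0.17) with an adjusted p of 4.19e-05. Both rose after quantile normalization too, by 1.61 (SE 0.18) and 1.70 (SE 0.16). Both stood far beyond the spread of either group, and each exceeded the highest subunit change of 0.35. Of 14 genes of the citric acid cycle and pyruvate dehydrogenase, Dld alone passed on the deposited values, where it fell by 0.33 (SE 0.09). After quantile normalization Dld did not pass, at -0.16 (SE 0.08), and the succinyl-CoA ligase subunits Sucla2 and Suclg2 rose by 0.43 (SE 0.08) and 0.33 (SE 0.07), with none falling. Of 68 mitochondrial ribosome genes 4 rose and 4 fell on the deposited values, and 7 rose and 2 fell after quantile normalization. The 13 subunits coded by mitochondrial DNA were not analysed here.

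At day 450, more than a year after the restriction had ended, no subunit passed in any comparison of restricted with control rats. With IUCR the deposited median was 0.11, with 40 subunits above 0 and 3 below, none passed (smallest limma adjusted p 0.597, 6 with an unadjusted p below 0.05), and 0% of all genes were called. After quantile normalization the median was 0.03 and none passed. In 4 of the 43 subunits, Uqcrq, Cox4i1, Cox7b and Atp5po, all 3 IUCR arrays lay above the controls, a separation found in 5.68% of all genes. Cox7b, a small subunit of cytochrome c oxidase, read 8.98, 8.86 and 8.54 in controls and 9.18, 9.10 and 9.04 in IUCR, a difference of 0.31 (SE 0.12, adjusted p 0.635). Atp5po, the stalk subunit once named OSCP, read 9.96, 9.91 and 9.66 in controls and 10.26, 9.98 and 10.14 in IUCR, a difference of 0.28 (SE 0.10, adjusted p 0.597). In both genes 1 control array, replicate C, was well below the other control rats.

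With IPCR at day 450 the deposited median was 0.12, with 42 subunits above 0 and 1, Ndufs4, below. None passed (smallest limma adjusted p 0.164, 10 with an unadjusted p below 0.05), while 0.0345% of all genes were called. In 10 of the 43 subunits all 3 IPCR arrays lay above the controls, a separation found in 12.0% of all genes. After quantile normalization the median was 0.01, with 23 subunits above 0 and 20 below, and none passed. All IPCR arrays lay above the controls in 2 of the 43 on that scale, against 7.58% of all genes. Scaling to one interquartile range turned the median to -0.05. The IUCR and IPCR comparisons of day 450 share their 3 control rats.

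Ndufa10, an accessory subunit of complex I, had the largest change with IPCR at day 450. It read 7.30, 7.86 and 7.09 in controls, 7.86, 7.69 and 7.80 in IUCR, and 7.80, 7.96 and 8.05 in IPCR. The control rats spread over more than either restricted group, and control array B lay within the range of the IPCR rats. The IPCR difference was 0.52 (SE 0.14, adjusted p 0.164), and without control array B it was 0.74 with an adjusted p of 0.0215. Cox4i1, the clearest subunit of day 21, read 10.84, 10.85 and 10.72 in controls of day 450, 11.02, 10.90 and 10.98 in IUCR, and 11.04, 10.97 and 10.93 in IPCR. Both restricted groups lay above the controls, with differences of 0.16 (SE 0.06, adjusted p 0.639) and 0.18 (SE 0.06, adjusted p 0.249). Neither passed. After quantile normalization the differences were 0.06 (SE 0.07) and 0.02 (SE 0.07), the groups overlapped, and neither passed (adjusted p 0.904 and 0.943).

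The restricted groups of day 450 were close to each other. IPCR against IUCR had a deposited median of 0.01, none of the 43 subunits passed (smallest limma adjusted p 0.634, 1 with an unadjusted p below 0.05), and 0.0414% of all genes were called. Every subunit's 95% interval in that comparison lay within 0.5 of 0. The sign of the median turned to -0.04 after quantile normalization, and also when single rats were left out. The largest single difference was that of Ndufa2, at 0.18 (SE 0.08).

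**Figure D3:**
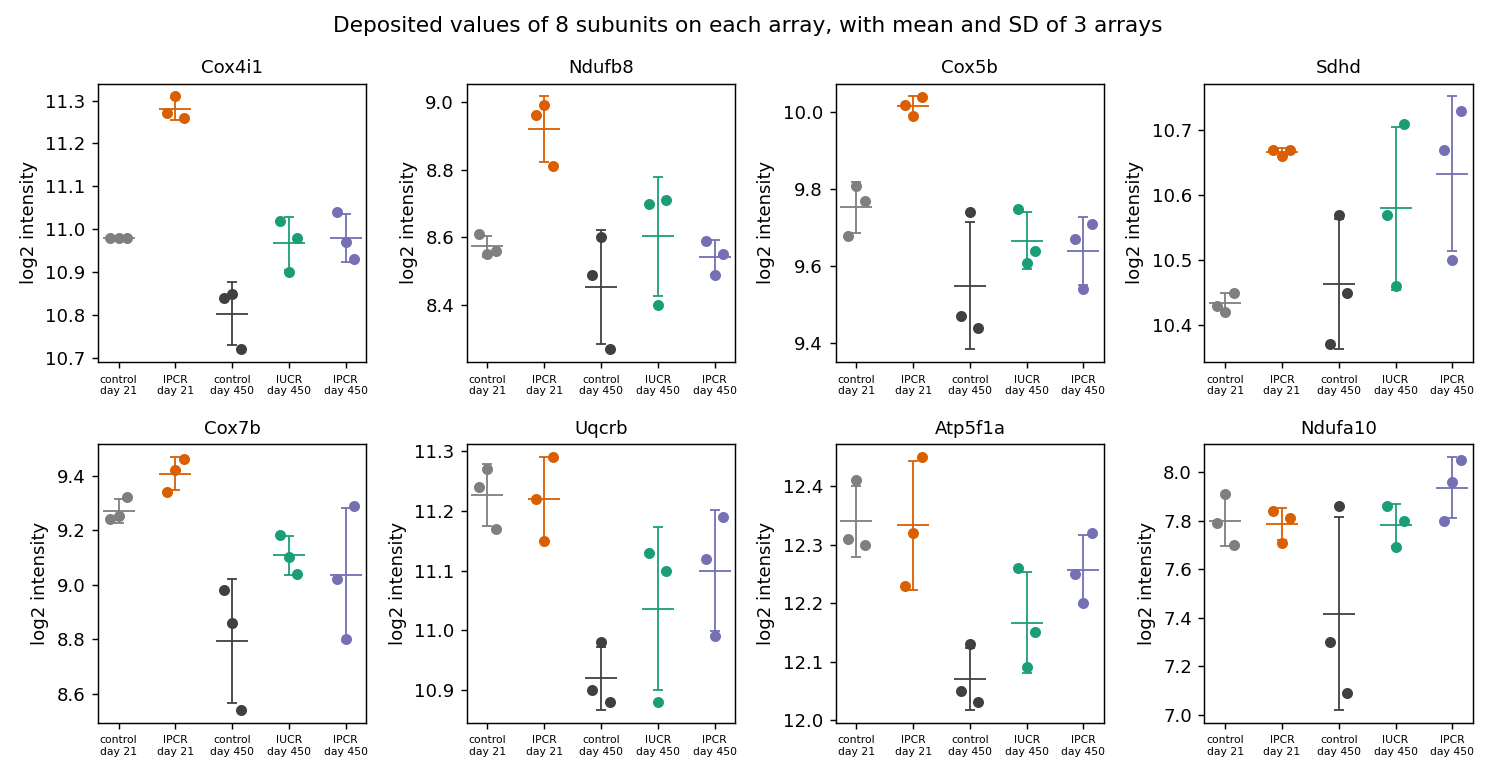
Deposited log2 intensity of 8 subunits on each of the 15 arrays, with the mean and SD of the 3 arrays of each group; each panel has its own axis, which does not start at 0. Cox4i1 of IPCR at day 21 stands at 11.26 to 11.31 above every other group, and Ndufa10 spreads from 7.09 to 7.86 in the controls of day 450.

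Whether the IPCR change differed between ages was tested directly, as the change at day 450 minus that at day 21. On the deposited values no subunit passed (smallest limma adjusted p 0.0999, Ndufa8; 5 with an unadjusted p below 0.05), the median was 0.05, and 8.20% of all genes were called. After quantile normalization 8 subunits had a lower IPCR change at day 450 than at day 21, Ndufb9, Ndufv1, Sdhb, Sdhc, Cox4i1, Cox5b, Cox7a2 and Atp5f1b, and the median was -0.23, while 2.54% of all genes were lower. For Cox4i1 the difference was -0.13 (SE 0.09, adjusted p 0.415) on the deposited values and -0.47 (SE 0.10, adjusted p 0.0134) after quantile normalization. With single arrays left out under quantile normalization, 1 to 11 subunits were lower. The count was 1 without control array B or IPCR array C of day 450, 2 without IPCR array B of day 21, 3 without control array A or IPCR array A of day 21, 4 without IPCR array A or B of day 450 and 5 without control array B of day 21. On the deposited values Ndufa8 passed without IPCR array C of day 21 (adjusted p 0.0384) and Ndufa10 without control array B of day 450 (adjusted p 0.007), each with the higher change at day 450. A difference between ages was thus called on one scale and not on the other.

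Between the control groups a few respiratory subunits were lower at day 450 than at day 21. On the deposited values 4 of 43 fell and none rose, while 5.22% of all genes fell and 4.67% rose. After quantile normalization 6 fell, the same 4 with Ndufs3 and Atp5po, and none rose, while 6.62% of all genes fell and 5.42% rose. The median was -0.14 and -0.15 on these scales, against 0.00 for the genes above the median level on the deposited values, and the sign was the same on both scales for all 43 subunits. Leaving out single arrays under quantile normalization gave 3 to 10 subunits that fell, with 3 without control array C of day 21, 4 without control array C of day 450 and 10 without control array B of day 450. In 13 of the 43 subunits all 3 old rats lay below all 3 young rats, a separation found in 13.8% of all genes. Every subunit counted to complexes III, IV and V was below 0 in this comparison, as were 17 of 21 counted to complex I. Ndufa4 was above 0, with means of 11.77 at day 21 and 11.84 at day 450. All 4 of complex II were above 0, with a median of 0.04 and none passing.

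Cox7b fell most, from 9.24, 9.25 and 9.32 at day 21 to 8.98, 8.86 and 8.54 at day 450. The groups were apart, and the older rats were the more scattered. The fall was 1.39-fold, or -0.48 (SE 0.12), with a limma adjusted p of 0.0168, and it was lost without control array C of day 21 (0.0622) or of day 450 (0.0792). Uqcrb, a small complex III subunit near the ubiquinone site, read 11.24, 11.27 and 11.17 at day 21 and 10.90, 10.98 and 10.88 at day 450, a change of -0.31 (SE 0.08, adjusted p 0.025). Atp5f1a, the alpha subunit of ATP synthase, read 12.31, 12.41 and 12.30 and then 12.05, 12.13 and 12.03, a change of -0.26 (SE 0.08, adjusted p 0.0358). Ndufa9, which lies where the arms of complex I join, read 10.32, 10.29 and 10.34 and then 10.06, 10.17 and 9.84, a change of -0.29 (SE 0.09, adjusted p 0.0435). In each of the 4 genes the ages did not overlap. The calls were not stable to the loss of a rat: without control array C of day 450 none of the 43 passed, 1 passed without any 1 control array of day 21 or control array A of day 450, and 6 passed without control array B of day 450. Sdha, the flavoprotein of complex II, went the other way without passing, at 0.18 (SE 0.09, adjusted p 0.227).

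**Figure D4:**
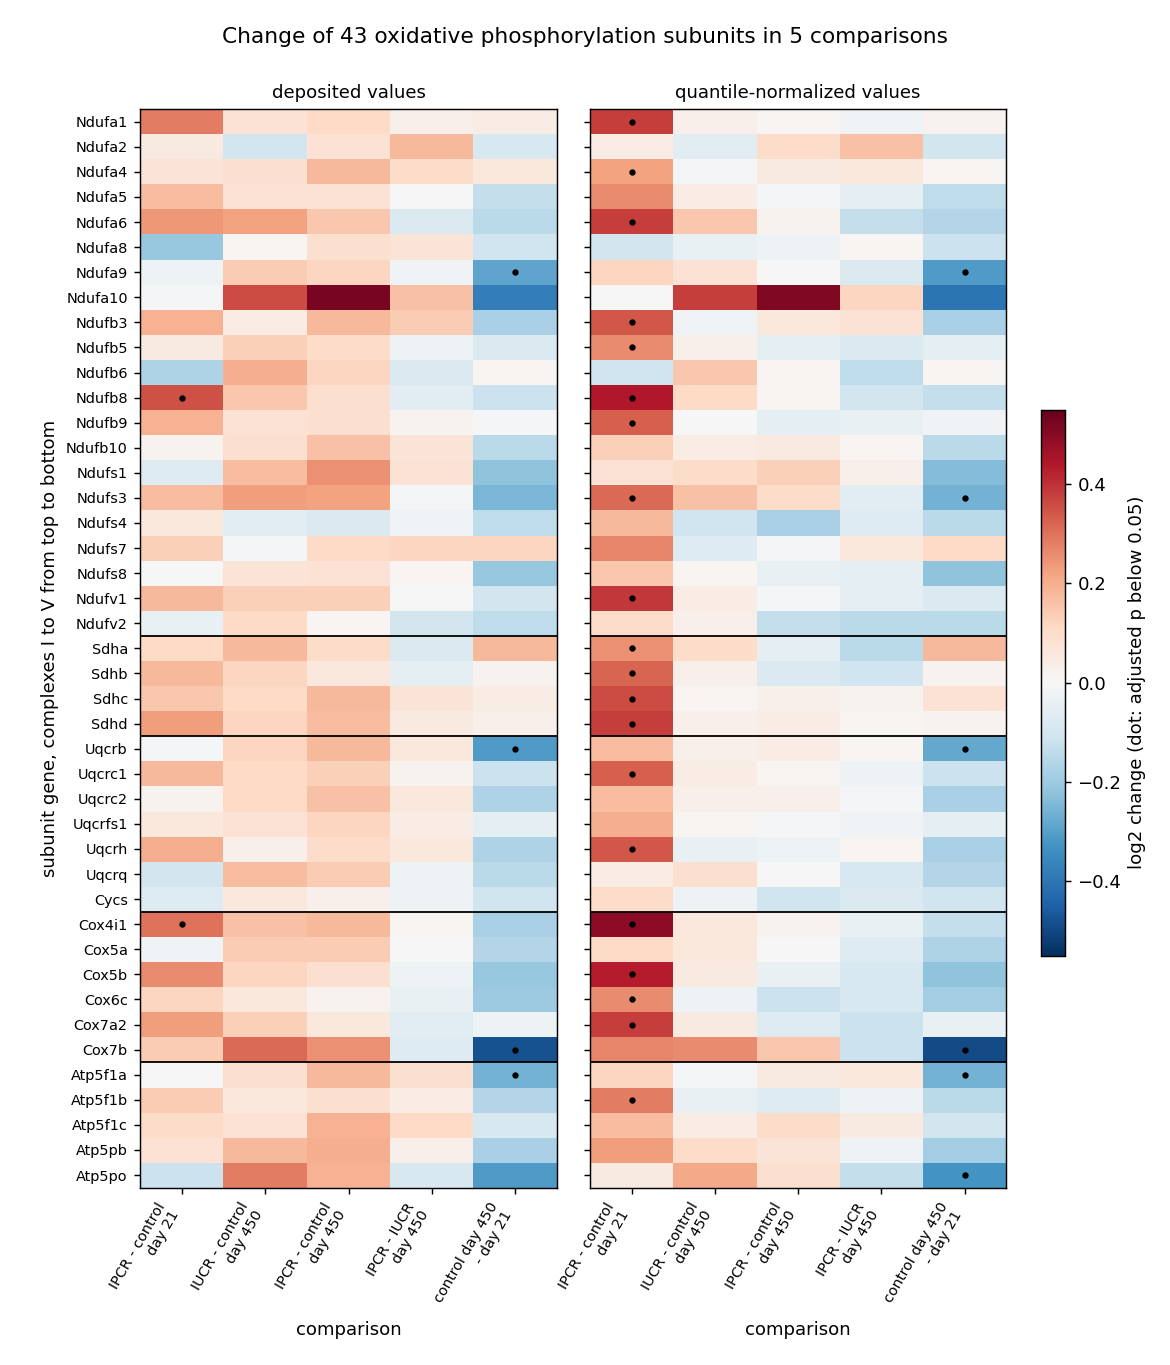
Log2 change of the 43 subunits (rows, complexes I to V from top to bottom) in 5 comparisons (columns) on the deposited values (left) and after quantile normalization (right); red is higher in the first-named group, and a dot marks an adjusted p below 0.05. Dots in the day-21 column number 2 on the left and 20 on the right, those in the age column 4 and 6, and the 3 columns of day 450 hold none.

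Genes around the chain also differed between the ages, and each gene named here as rising or falling did so on both scales. Ppargc1a read 6.49, 6.70 and 6.33 in control rats of day 450, below every control rat of day 21, and it fell by 1.64 (SE 0.23) with a limma adjusted p of 0.000245. Slc25a4 fell by 0.96 (SE 0.16), and Cs, the citrate synthase often used to gauge mitochondrial content, fell by 0.35 (SE 0.09). Of 12 genes of coenzyme Q synthesis or binding, Coq8a fell by 0.96 (SE 0.11), Coq10a by 0.67 (SE 0.13) and Coq8b by 0.29 (SE 0.08). Coq10b rose by 0.63 (SE 0.17). Of 27 further nuclear subunits 2 fell, Atp5pd by 0.25 (SE 0.07) and Ndufa12 by 0.28 (SE 0.08). Of 68 mitochondrial ribosome genes 8 fell and none rose on either scale. Over all genes 5.22% fell and 4.67% rose on the deposited values, and 6.62% fell and 5.42% rose after quantile normalization. Of 17 genes of carriers, electron entry and peroxide defence only Prdx5, a mitochondrial peroxide-removing enzyme, rose, by 0.39 (SE 0.08). Of 16 genes listed as regulators Esrrg alone rose, by 0.53 (SE 0.10). Polg fell by 0.40 (SE 0.10) and Atp5if1 by 0.28 (SE 0.08), beside Ppargc1a. Of 30 assembly factors Bcs1l fell by 0.39 (SE 0.10) and Coa3 by 0.34 (SE 0.09), and none rose. After quantile normalization 5 of the 30 fell and 1 rose. Markers of other cells moved with age as well. Of 5 measured stellate cell markers 4 were below 0 and 1 above. Lrat and Reln fell by 1.06 (SE 0.17) and 0.69 (SE 0.12), and 3 of the 5 fell after quantile normalization. Of 3 measured markers of red cell precursors, Slc4a1 fell by 0.84 (SE 0.17). Summed stellate marker levels were 11.07 to 11.45 at day 21 and 10.45 to 10.87 at day 450, and those of red cell precursors 9.85 to 10.34 and 9.11 to 9.82. Their part in the age differences was not tested. No gene of these related lists passed in the 3 comparisons within day 450.

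Of the subunits, 4 had several probe sets. Uqcrb had 3, which gave age changes from -0.32 to -0.31, and Cycs, Cox5a and Cox7a2 had 2 each.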

How the data were processed

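The deposited log2 values were made by the authors with RMA in Affymetrix Expression Console, per the submitters' processing notes; no version is named there. Of 29215 probe sets, 15310 carry 1 gene symbol and 323 several, which were left out; the brightest probe set stood for a gene, leaving 14506 genes. Group means over 15 arrays were fitted with limma 3.58.1 (R 4.3.3, eBayes, 10 residual degrees of freedom), without a block, in 6 comparisons, after tests on simulated data. The deposited table was the main setting because it is already normalized. Named are members past the threshold, the largest change of each complex in each comparison, Cox4i1 and Ndufb8, 5 regulators, and up to 4 passing genes of each related list. The members and lists were chosen with earlier results of these data known. Replicate letters were checked as pairs: of 30 same-letter pairs, 5 had correlated deviations above 0.1. The correlations ran from -0.26 to 0.20 for the same letter and from -0.25 to 0.33 for different letters. Arrays of one letter thus did not deviate together more than others, and the letters were not used as pairs. The labels do not say what the letters stand for, and this check cannot show it. Alternatives were quantile normalization, centring, a block, left-out arrays, only the groups compared, genes above the median and interquartile scaling. Others were the mean of a gene's probe sets and limma's trend and robust moderation. The number of arrays limits the precision. Time of day of collection is not in the labels, and no scan batches were tested.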

Additional observations from a re-analysis of the deposited data

Results flagged for a closer look

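None of the 43 subunits passed for a difference in its IPCR change between ages on the deposited values, where 8.20% of all genes were called. By limma 9 genes of the related lists passed, a count to be read beside the same 8.20% of all genes. Values are given as the change at day 450 minus that at day 21. Those lists measured 30 assembly factors, 14 citric acid cycle and pyruvate dehydrogenase genes and 68 mitochondrial ribosome genes. They also measured 12 genes of coenzyme Q synthesis or binding and 17 of carriers, electron entry and peroxide defence. None passed among the 27 further subunits or the 16 genes listed as regulators on the deposited values. Slc25a4, the ADP/ATP carrier, had a difference of -1.44 (SE 0.22, adjusted p 0.0017) and Coq10b one of -1.19 (SE 0.24, adjusted p 0.00853). Both had risen at day 21 and did not pass at day 450. Among assembly factors the difference was 0.72 (SE 0.14) for Timmdc1, 0.56 (SE 0.12) for Tmem70 and -0.42 (SE 0.12) for Ndufaf4, the last with an adjusted p of 0.035 that was lost when any 1 of several arrays was left out. Dld, shared by the pyruvate and 2-oxoglutarate dehydrogenases, had 0.57 (SE 0.13), which shrank to 0.27 (adjusted p 0.197) after quantile normalization. Coq10a, the other coenzyme Q binding protein of this kind, had 0.66 (SE 0.18), and 0.62 (adjusted p 0.0562) after quantile normalization. The mitochondrial ribosome genes Mrps27 and Mrpl21 had 0.73 (SE 0.15) and 0.41 (SE 0.10), and Mrpl21 had 0.26 (adjusted p 0.135) after quantile normalization. The calls of the other 6 genes held there. Quantile normalization also added calls, each with a lower change at day 450, where 2.54% of all genes were lower. They were 2 of the 27 further subunits (Cox8a and Cox6a1), Atp5if1 of the 16 regulators, and the ribosome genes Mrpl12, Mrps18a and Mrps31. Of the 17 genes of carriers, electron entry and peroxide defence, 6 were lower on that scale, Slc25a4 among them.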

How the results depend on the processing

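Quantile normalization moved the day-21 result from 2 to 20 subunits and its median from 0.10 to 0.25, and the day-450 IPCR median from 0.12 to 0.01; it reversed the IPCR against IUCR median to -0.04 and the median difference of the IPCR change between ages to -0.23, with 8 subunits called. Scaling to one interquartile range, chosen after seeing the data, gave 13 subunits and a median of 0.24 at day 21. It gave medians of 0.01 for IUCR, -0.05 for IPCR and -0.07 for IPCR against IUCR at day 450. For the difference between ages it gave 5 subunits with a median of -0.28. Of 14506 genes at that scaling, 577 rose at day 21, and 415 rose and 280 fell for the difference between ages. Centring the arrays turned the IPCR against IUCR median to -0.01. Testing only genes above the median level gave 4 subunits at day 21. The replicate block, on letters not known to pair the rats, left 2 subunits in the age comparison, as did fitting only the groups compared. Leaving out 1 array gave 1 to 3 subunits at day 21, 0 to 6 in the age comparison, 0 to 1 for IPCR at day 450 and 0 to 1 for the difference between ages. It gave IPCR against IUCR medians of -0.04 (without IUCR array B) to 0.05, with -0.01 without IPCR array A or C, and medians of the difference between ages of -0.02 (without control array C of day 450) to 0.09. The causes of these shifts were not tested. The SD of the subunits' median between single arrays of a group was 0.078 on the deposited values. Deposited median changes were 0.10 for IPCR at day 21, 0.11 for IUCR and 0.12 for IPCR at day 450, and -0.14 between control ages. This SD is not the error of a difference between means of 3 arrays. The 3 rats a group limit what a change of 0.1 can show.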
